A study of Mus musculus with 24 samples.

Results

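The nuclear genes for the subunits of the mitochondrial respiratory chain and ATP synthase were taken by symbol, as the Nduf subunit genes of the A, B, C, S and V series, Sdha to Sdhd, the Uqcr genes, Cyc1, the Cox4 to Cox8 genes and the Atp5 genes, with pseudogene names left out. The rule uses names only and no measured value. It found 84 of the 29759 genes of the tables: 35 of complex I, 4 of complex II, 9 of complex III, 19 of complex IV and 17 of complex V. Of the complex I genes, 7 are core subunits and 28 accessory subunits, and Ndufa4 was placed in complex IV.

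RNA was sequenced from chromatin, nucleoplasm, cytoplasm and whole cells ("total") of E14 cells, a mouse embryonic stem cell line, in 2 states, with 3 libraries for each of the 8 groups. Naive cells (nESC) were kept in N2B27 medium with LIF, the MEK inhibitor PD0325901 and the GSK inhibitor CHIR99021, and epiblast-like cells (EpiLC) had spent 3 days in bFGF (12 ng/ml) plus activin A (20 ng/ml). All 8 groups come from this 1 line, and the labels name no knockout, transgene or other treatment. They do not say whether the 3 libraries of a group came from separate cultures, so every p-value measures the spread between these libraries, which may be technical.

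Respiratory complexes in the inner mitochondrial membrane pass electrons from NADH and succinate to oxygen. Some of them pump protons across this membrane, and ATP synthase uses the returning protons to make ATP. Most subunits are encoded in the nucleus, translated in the cytoplasm and imported, while a few come from the mitochondrial genome itself. The nuclear genes are known for strong and broad expression, for short messages and for promoters bound by NRF1, by the ETS family factor GABP and by YY1. Pluripotent cells carry all of the complexes, and naive and primed states are known to differ in how far they rely on respiration.

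Promoter sequence was searched for the motifs of the 3 regulators named above. RefSeq windows (GRCm38.p6) were found for 68 of the 84 genes, and only the 250 bases before the start site were read, on both strands. The NRF1 motif, a palindrome of 10 letters that stands in capitals in the lines shown next, occurred in 4 genes (5.88% of 68, against 0.877% of the 27025 genes of the table), the ETS motif CCGGAAG in 12 (17.6% against 7.83%) and the YY1 motif, in capitals in the Atp5j YY1 line, in 1 (1.47% against 0.359%). Together 15 genes, or 22.1%, held at least 1 of the 3, against 8.81% of all genes. A match of letters is a description and shows no binding.

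The 4 NRF1 matches are shown with the bases around them, read along the motif, which is in capitals, to show the match in its surroundings.
Atp5g2, chr15:102671070-102671099, - strand: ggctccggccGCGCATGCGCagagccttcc
Atp5k, chr5:108434430-108434459, - strand: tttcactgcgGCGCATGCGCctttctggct
Cox6a1, chr5:115349101-115349130, - strand: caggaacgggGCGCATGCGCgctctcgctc
Ndufa11, chr17:56717692-56717721, + strand: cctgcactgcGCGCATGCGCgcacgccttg

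ETS matches in capitals are shown for 5 genes that recur in the results, again read along the motif, with the 1 YY1 match, which lies in the Atp5j window beside an ETS match.
Atp5e ETS, chr2:174464185-174464214, + strand: gccgagcggctaCCGGAAGctgtggccgta
Atp5j ETS, chr16:84835019-84835048, - strand: agctgagggacCCGGAAGcacttaccctcc
Cox6a1 ETS, chr5:115348959-115348988, + strand: accggcgcgCCGGAAGcggaaatggggacg
Cox6b1 ETS, chr7:30626124-30626153, + strand: aattccgactggCCGGAAGctgcgagagga
Sdhd ETS, chr9:50603877-50603906, + strand: ctgaagcgtgaaCCGGAAGgcaggagacgg
Atp5j YY1, chr16:84835045-84835074, - strand: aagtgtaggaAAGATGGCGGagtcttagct

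The promoter of Atp5e, the gene with the lowest chromatin level relative to cytoplasm in nESC among members above 0 in chromatin, is shown whole up to the first annotated exon base, on the gene's own (-) strand at chr2:174464106-174464351, with the ETS match in capitals on its reverse complement.
Atp5e promoter: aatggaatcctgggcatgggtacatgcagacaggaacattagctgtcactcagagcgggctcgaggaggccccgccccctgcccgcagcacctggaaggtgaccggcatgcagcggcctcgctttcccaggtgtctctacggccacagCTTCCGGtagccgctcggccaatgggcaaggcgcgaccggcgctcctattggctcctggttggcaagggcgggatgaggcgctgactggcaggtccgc

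The deposited values are FPKM, fragments scaled to transcript length and to library size, so levels of different genes are compared per length. The labels' states were matched by their markers: all 5 naive genes (among them Nanog) were at least 2-fold lower in EpiLC total RNA and all 4 epiblast-like genes (among them Fgf5) at least 2-fold higher. Chromatin held more of the nuclear noncoding RNAs Malat1, Neat1, Meg3 and Kcnq1ot1 than cytoplasm did, with 3 of 4 passing the test in nESC and 4 of 4 in EpiLC. Malat1 had means of 4864 FPKM in nESC chromatin and 173 FPKM in cytoplasm. Its nESC nucleoplasm libraries varied widely (2466 ± 2139 FPKM, SD), and the test takes 1 spread per gene over all 12 libraries. Steps between low values put 12.5 to 49.4 fragments behind 1 FPKM per kilobase of effective length, with the fewest in cytoplasm and chromatin, so values of a few FPKM on these short messages rest on few fragments. The third EpiLC chromatin library stands apart: it was the highest of its group for 75 of 80 members (median 0.92 above the other 2 on the log2 scale), and the 84 members summed to 10449 FPKM in it against 5096 and 5281. The third EpiLC cytoplasm library was the lowest of its group for 74 of 80 members, by a median of 0.22. In nESC chromatin the third library was the lowest of its group for 69 of 80 members (median -0.28) and the first the highest for 61 (0.25). All libraries were kept. Without the third EpiLC chromatin and cytoplasm libraries, 77 of 80 members were lower in EpiLC chromatin than in cytoplasm (median -3.24), 41 were lower and 2 higher in nucleoplasm than in cytoplasm, and 50 were higher and 0 lower in cytoplasm than in total RNA. No shares of all genes are set beside these counts, so they show only the dependence on those libraries. The counts with all libraries are given with each comparison, beside the shares of all genes.

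The members were among the more abundant messages of every fraction. Their median was 194 FPKM in nESC total RNA and 128 FPKM in EpiLC total RNA, and 80 of 84 reached a mean of 1 FPKM in each of these groups. Atp5b, the catalytic beta subunit of ATP synthase, was the highest in all 8 groups, at 3504, 3249 and 3431 FPKM in the 3 nESC total libraries and 2736, 2771 and 2829 FPKM in EpiLC. Cox7c, a small complex IV subunit, came next in 7 of the 8 groups and Atp5k, a membrane subunit of ATP synthase, in nESC cytoplasm. Of the library's whole FPKM sum, the members took 1.54% to 1.79% in nESC chromatin, 4.49% to 4.72% in nucleoplasm, 2.82% to 2.89% in cytoplasm and 3.15% to 3.29% in total RNA. In EpiLC these shares were 1.14% to 2.07%, 2.74% to 3.18%, 2.43% to 2.54% and 2.53% to 2.58%. By this share, chromatin held the least and nucleoplasm the most in both states. The order of the FPKM values themselves was another, with cytoplasm highest, and the whole FPKM sums were 432706 to 504959 in chromatin and 1555123 to 1980223 in cytoplasm libraries.

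Chromatin was compared with cytoplasm to ask where in the cell these messages reside. In nESC, 76 of the 81 members that averaged 1 FPKM or more were lower in chromatin (limma on log2(FPKM + 0.5), adjusted p under 0.05 and at least 2-fold) and 0 were higher, beside 29.7% lower and 31.8% higher among all 12592 genes tested. The median log2 fold of the members was -2.93 and that of all genes 0.04. In EpiLC, 76 of 80 were lower and 0 higher, beside 28.4% and 29.1% of 12834 genes, with a median of -2.79 against 0.00. All 28 accessory complex I genes and all 9 complex III genes were among the lower ones in both states. Scaling each library to one FPKM sum, which moves the median of all genes to 1.86 in nESC and 1.70 in EpiLC, left 38 lower and 5 higher in nESC and 35 lower and 4 higher in EpiLC. The members' median minus that of all genes was then -2.82 in nESC, and -2.97 without that scaling.

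**Figure D1:**
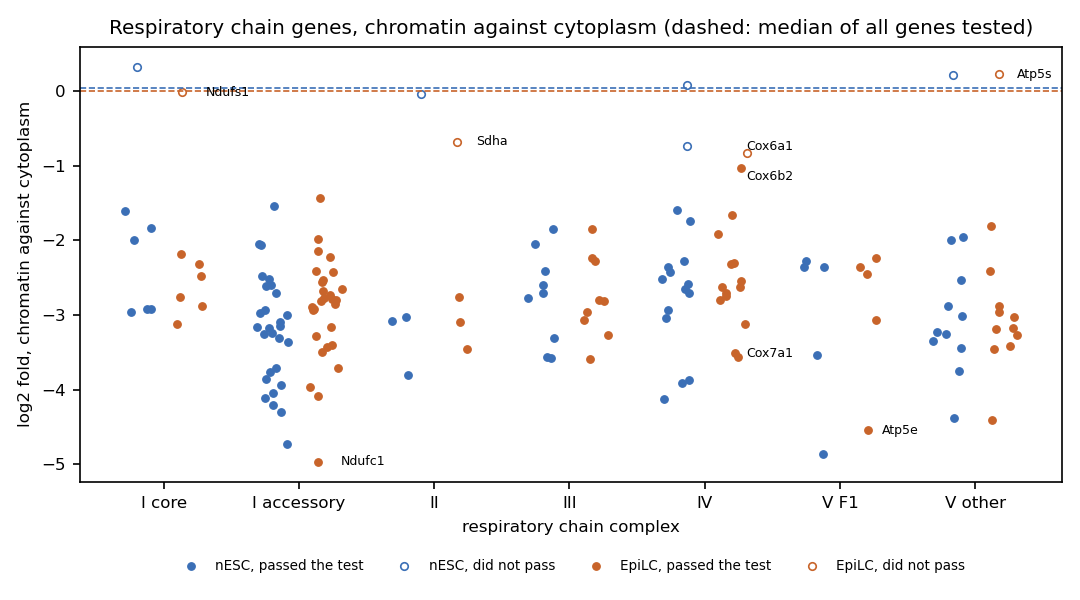
Log2 fold of chromatin against cytoplasm (y axis) for each tested member, by complex (x axis), in nESC (blue) and EpiLC (orange). Filled points passed the test and open points did not. Dashed lines are the medians of all genes tested, at 0.04 and 0.00, and nearly every member lies below -1, with Ndufs1, Sdha, Cox6a1 and Atp5s above it in both states.

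Complex I takes electrons from NADH. Its accessory subunit Ndufc1 (ENSMUSG00000037152.11, chromosome 3, 51404677 to 51408988, GENCODE vM21 on GRCm38) gave 22.8, 21.7 and 11.1 FPKM in nESC chromatin and 534, 463 and 449 FPKM in cytoplasm. In EpiLC the gene stood at 8.39, 4.84 and 33.3 FPKM in chromatin and 394, 398 and 315 FPKM in cytoplasm. Chromatin and cytoplasm libraries did not overlap in either state, and the third EpiLC chromatin library was the highest of its group. The log2 fold was -4.73 ± 0.22 (SE, adjusted p = 1.88e-10, limma) in nESC and -4.97 ± 0.48 (adjusted p = 5.88e-07) in EpiLC. Ndufa3, another small accessory subunit, was at 42.2, 28.6 and 25.7 FPKM in nESC chromatin and 668, 608 and 617 FPKM in cytoplasm, with no overlap and with log2 folds of -4.30 and -4.08.

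Ndufs1, the largest iron-sulfur core subunit, in the peripheral arm, differed from the rest of complex I in chromatin against cytoplasm. This gene (chromosome 1, 63143596 to 63176833) has 19 exons and a message of 2661 bases. It was at 50.0, 64.6 and 64.8 FPKM in nESC chromatin, 74.8, 70.1 and 78.1 FPKM in nucleoplasm and 46.0, 50.7 and 45.1 FPKM in cytoplasm. In EpiLC it was at 51.4, 51.2 and 46.8 FPKM in chromatin, 101, 103 and 110.1 FPKM in nucleoplasm and 43.9, 46.5 and 61.9 FPKM in cytoplasm. Nucleoplasm was the highest of the fractions in both states, and every nucleoplasm library lay above every cytoplasm library. In nESC this held for other complex I genes too, such as Ndufb9, with means of 587 FPKM in nucleoplasm and 433 FPKM in cytoplasm. Chromatin against cytoplasm did not pass, with log2 folds of 0.33 ± 0.10 (SE) in nESC and -0.01 ± 0.11 in EpiLC. Total RNA, at 118, 116 and 106 FPKM in nESC, was above all of the fractions, and cytoplasm was lower than total by 2.39-fold (adjusted p = 1.33e-07), the only member that passed the test as lower there. Ndufs1 overlaps Eef1b2 on the opposite strand, and the use of strand in counting is not given in the sources used here.

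Complex II oxidizes succinate and is the one complex with no mitochondrially encoded subunit. Its 4 genes did not behave alike. Sdhb, the iron-sulfur subunit, was at 34.5, 33.3 and 32.9 FPKM in nESC chromatin and 312, 271 and 285 FPKM in cytoplasm. Sdhc and Sdhd, the membrane anchors, had the same order, with Sdhc at 7.26, 10.2 and 6.76 against 119.5, 112 and 121 FPKM. These 3 genes were lower in chromatin in both states, with log2 folds from -3.81 for Sdhc in nESC to -2.76 for Sdhb in EpiLC. Sdha, the flavoprotein that holds the succinate site, was at 107, 97.5 and 118 FPKM in nESC chromatin, 130.5, 132 and 141 FPKM in nucleoplasm and 115, 105 and 111 FPKM in cytoplasm. Its chromatin and cytoplasm libraries overlapped in nESC, with a log2 fold of -0.04 ± 0.09 (SE, adjusted p = 0.649). In EpiLC chromatin it was at 65.2, 47.7 and 58.9 FPKM against 95.0, 81.6 and 98.0 FPKM in cytoplasm, without overlap but under 2-fold (log2 fold -0.68 ± 0.12).

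Complex III passes electrons from ubiquinol to cytochrome c. Uqcrq and Uqcr10, small subunits of its membrane part, had the largest folds among the complex III genes in both states. Uqcrq was at 21.2, 13.6 and 8.28 FPKM in nESC chromatin and 170.1, 156 and 169.7 FPKM in cytoplasm, a log2 fold of -3.58 ± 0.23 (SE, adjusted p = 4.97e-09), and the fold in EpiLC was -3.60. Uqcr10 was more abundant, at 2356, 1953 and 2162 FPKM in nESC cytoplasm, with folds of -3.56 and -3.27. Uqcrc2, a core protein, and Uqcrb had smaller folds that also passed, of -1.85 and -2.41 in nESC.

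Complex IV reduces oxygen, and several of its subunits have paired genes of which 1 is widespread and the other known from muscle or testis. Of its 16 members tested in nESC, 14 were lower in chromatin, as were 14 of 15 in EpiLC. Cox7a1, the muscle isoform of subunit VIIa, was at 17.2, 15.3 and 8.75 FPKM in nESC chromatin and 259, 219 and 239.7 FPKM in cytoplasm, the largest fold of this complex among genes above 0 in chromatin (-4.12 ± 0.18, SE, adjusted p = 1.12e-10). Cox7a2l, which joins complexes III and IV into larger assemblies, was at 32.5, 31.7 and 27.9 and 507, 426 and 441 FPKM in the same libraries, a fold of -3.88. No chromatin library of either gene came near its cytoplasm libraries. The widespread isoforms Cox4i1, Cox6b1, Cox7a2 and Cox8a ran from -3.04 to -2.51 in nESC.

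Cox6a1 and Cox6b2 were the complex IV members that did not reach 2-fold in nESC, and in EpiLC Cox6a1 alone did not. Cox6a1, the widespread form of subunit VIa (chromosome 5, 115345642 to 115348981), was at 298, 302 and 207 FPKM in nESC chromatin, 1409, 1411 and 1245 FPKM in nucleoplasm and 403, 460.0 and 468 FPKM in cytoplasm. Total RNA held 338, 307 and 348 FPKM. Nucleoplasm was thus the highest group, with no overlap with any other, and it exceeded cytoplasm by 3.05-fold (log2 fold 1.61 ± 0.13, SE, adjusted p = 1.11e-07). In EpiLC nucleoplasm Cox6a1 was at 933, 1027 and 797 FPKM and in cytoplasm at 414, 418 and 365 FPKM, 2.29-fold apart (adjusted p = 0.00773). Its EpiLC chromatin values of 131, 174 and 492 FPKM were spread widely: chromatin against cytoplasm was -0.83 with all libraries and -1.40, past the test, without the third chromatin library.

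ATP synthase has a catalytic F1 head and a membrane part. Atp5e, the epsilon subunit of F1 (chromosome 2, 174461072 to 174464105), had 3 exons, a message of 421 bases and the lowest chromatin level relative to cytoplasm in nESC of the members above 0 in chromatin. It was at 23.6, 18.8 and 12.6 FPKM in nESC chromatin, 80.8, 79.4 and 86.2 FPKM in nucleoplasm, 564, 533 and 505 FPKM in cytoplasm and 188, 181 and 136 FPKM in total RNA. In EpiLC it was at 12.5, 12.9 and 22.5 FPKM in chromatin, 49.6, 62.6 and 46.1 FPKM in nucleoplasm, 405, 415 and 301 FPKM in cytoplasm and 122, 132 and 129.6 FPKM in total RNA. The order cytoplasm, total, nucleoplasm, chromatin held in every library of both states with no overlap. The log2 fold of chromatin against cytoplasm was -4.87 ± 0.18 (SE, adjusted p = 2.28e-11) in nESC and -4.54 ± 0.20 (adjusted p = 6.2e-10) in EpiLC. Atp5k, subunit e of the membrane part, had -4.39 and -4.41 from a higher level of 2917, 2388 and 2565 FPKM in nESC cytoplasm.

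The c ring of ATP synthase is encoded by Atp5g1, Atp5g2 and Atp5g3, which differ in their import peptides and give the same mature protein. All of them passed toward cytoplasm, with nESC log2 folds of -3.23, -2.88 and -2.53. Atp5s, listed by its symbol among the ATP synthase genes, was a weakly expressed exception at 2.25, 2.99 and 2.08 FPKM in nESC chromatin and 2.23, 1.79 and 2.01 FPKM in cytoplasm, and these libraries overlapped.

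Chromatin was also set against nucleoplasm, the other nuclear fraction. Here 73 of 81 members were lower in chromatin in nESC and 77 of 80 in EpiLC, with 0 higher in both, beside 17.3% and 16.7% of all genes lower and 17.4% and 16.0% higher. The medians were -2.21 and -1.90. Cox6b2, Atp5s and Ndufa10 passed in neither state. In nESC others did not pass either, among them Ndufs1, Sdha and Ndufs3. Without the third EpiLC chromatin and cytoplasm libraries 77 of 80 passed, the same as with them, and the median was -2.25.

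Nucleoplasm against cytoplasm gave a more mixed picture. In nESC, 33 of 81 members were lower in nucleoplasm and 1, Cox6a1, was higher, beside 19.5% lower and 20.5% higher among all genes. In EpiLC, 38 of 80 were lower and 2, Cox6a1 and Ndufs1, were higher, beside 19.1% and 20.1%. The median log2 folds were -0.75 and -0.95, against -0.08 and -0.15 for all genes. Complexes differed: in nESC the median was -1.31 for complex II, -0.91 for complex I, -0.75 for complex III, -0.96 for complex V and -0.06 for complex IV, where 2 of 16 were lower. The position of complex IV was not the same in EpiLC. There every tested complex IV gene but Cox6a1 and Cox7b had a lower mean in nucleoplasm than in cytoplasm. In nESC Cox5b, Cox6c, Cox7c and Cox8a were among those with a higher mean in nucleoplasm. The direction of nucleoplasm against cytoplasm depends on the scale. With each library scaled to one sum, which moves the median of all genes to 0.98 in nESC and 0.72 in EpiLC, 19 members were higher and 1 (Atp5e) lower in nESC, and 7 were higher and 4 (Atp5e, Atp5k, Cox7a2l and Ndufc1) lower in EpiLC. After correction for length and GC the counts were 4 higher and 8 lower in nESC and 2 higher and 9 lower in EpiLC. Shares of all genes in these 2 settings are not given here. The counts therefore show the dependence on the setting and not a trait of the members.

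**Figure D2:**
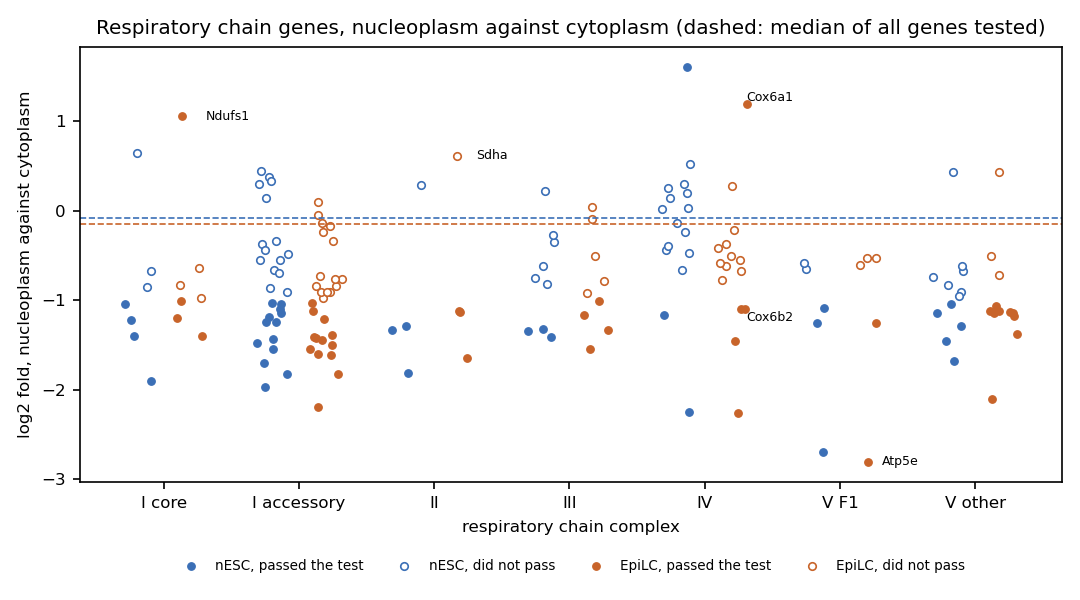
Log2 fold of nucleoplasm against cytoplasm (y axis) for each tested member, by complex (x axis), in nESC (blue) and EpiLC (orange). Filled points passed the test, open points did not, and dashed lines are the medians of all genes (-0.08 and -0.15). Atp5e is the lowest point and Cox6a1 the highest in both states.

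The ends of that range passed the test in both states on the deposited scale, scaled to one sum and after the length and GC correction: Atp5e lower and Cox6a1 higher. The log2 fold of Atp5e was -2.69 ± 0.18 (SE, adjusted p = 2.08e-08, limma) in nESC and -2.81 in EpiLC. That of Cox7a2l was -2.25 and -2.26, and scaled to one sum it passed in EpiLC and not in nESC. Ndufs1 exceeded cytoplasm in EpiLC nucleoplasm by 2.08-fold (adjusted p = 3.15e-06), and by 1.57-fold in nESC, short of 2. Without the first EpiLC cytoplasm library the EpiLC value of Ndufs1 was 0.96 on the log2 scale and no longer passed, nor did it with each library centred on its median (0.88) or after correction for length and GC (0.68).

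Cytoplasm was also set against total RNA. In nESC 25 of 81 members were higher in cytoplasm and 1, Ndufs1, was lower, beside 16.0% higher and 19.4% lower among all genes. In EpiLC 43 of 80 were higher and 0 lower, beside 12.7% and 17.6%. The medians were 0.81 and 1.03, against 0.11 and 0.16 for all genes. Scaled to one sum, 1 was higher (Cox8b) and 6 lower in nESC, and 0 higher and 1 lower (Ndufs1) in EpiLC. With each library centred on its median 37 were higher and 1 lower in nESC and 54 and 0 in EpiLC, and after correction for length and GC 9 were higher and 0 lower in each state. The 13 messages of the mitochondrial genome, which code for the remaining subunits, ran the other way: 0 were higher and 6 lower in nESC cytoplasm than in total RNA, and 0 and 11 in EpiLC.

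Other lists of the same pathway were read beside the subunits. Of the 13 mitochondrial messages, 11 were higher in nESC nucleoplasm than in cytoplasm (median log2 fold 1.70) and 13 in EpiLC (2.89), and none was lower. Among all genes 20.5% were higher and 19.5% lower in nESC, and 20.1% and 19.1% in EpiLC. Whether the nucleoplasm fraction carried mitochondria was not tested, so these values do not place the messages in the nucleus. Assembly factors build the complexes and are not part of them. Of 49 tested, 29 were lower and 2 (Ttc19 and Ndufaf4) higher in nESC chromatin than in cytoplasm, beside 29.7% and 31.8% of all genes. Their median was -1.50, and the counts in EpiLC were 30 and 3 of 50, beside 28.4% and 29.1%. Of 7 electron carriers and related genes, 5 were lower in nESC chromatin, among them Cycs, which encodes cytochrome c, at -1.83, and 1, Gpd2, was higher.

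Nuclear-encoded regulators of respiratory genes, a list from Nrf1 and Gabpa to Tfam and Polrmt, went both ways. In nESC 6 of 13 were higher and 4 lower in chromatin than in cytoplasm, beside 31.8% and 29.7% of all genes. In EpiLC 4 and 3 of 14 were, beside 29.1% and 28.4%, so these counts do not set the list apart. Gabpa, the DNA-binding subunit of GABP, was one of the higher ones at a log2 fold of 2.32 in nESC and 2.33 in EpiLC. Atp5j, coupling factor 6, overlaps Gabpa on the opposite strand and went the other way, at -1.99 and -2.42. Without a stated use of strand, reads of the 2 genes may not be fully told apart. Of all 84 members, 26 overlap another gene of the tables, 4 of them on the same strand.

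Folds of single members were alike in the states. Across 80 members, the nESC and EpiLC folds of chromatin against cytoplasm had a Pearson's r of 0.93 (Spearman's rho 0.88), and those of nucleoplasm against cytoplasm 0.90 (0.88). These are descriptions across genes that share libraries, and genes are not independent replicates.

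The state difference itself was tested as an interaction, the EpiLC fold minus the nESC fold, over 12 libraries each centred on its median. For chromatin against cytoplasm, 1 of 80 members was higher in EpiLC (Ndufa13) and 1 lower (Cox6b2), beside 4.78% and 4.14% of the 11704 genes tested. For nucleoplasm against cytoplasm, 0 were higher and 1, Cox6b2 again, was lower, beside 1.12% and 1.51%. At 2 of 80 and 1 of 80, the members' shares lay below those of all genes.

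Cox6b2, the testis isoform of subunit VIb (ENSMUSG00000051811.14, chromosome 7, 4751792 to 4753094), was at 155, 139 and 131 FPKM in nESC chromatin, 152, 149.9 and 154 FPKM in nucleoplasm and 129, 132 and 138 FPKM in cytoplasm. In EpiLC it was at 41.8, 46.9 and 65.1 FPKM in chromatin, 43.1, 48.8 and 51.9 FPKM in nucleoplasm and 105, 92.4 and 112 FPKM in cytoplasm. On the deposited scale all 3 fractions thus held similar levels in nESC, whereas in EpiLC both nuclear fractions lay below cytoplasm with no overlap. The fold of nucleoplasm against cytoplasm was 0.19 ± 0.08 (SE) in nESC and -1.10 ± 0.14 in EpiLC, and their difference -1.23 ± 0.11 (adjusted p = 2.94e-05, limma). This call held without each of the 12 libraries in turn. For chromatin against cytoplasm the difference was -1.02 ± 0.22 (adjusted p = 0.00631), close to the 2-fold limit, and it fell short of 2-fold without the first nESC chromatin (-0.96), the first or second EpiLC chromatin (-0.87 and -0.97) or the first or the third EpiLC cytoplasm library (-0.99 and -0.97). The EpiLC fold itself, -1.03, likewise fell short without the first or second chromatin library or the third cytoplasm library. It turned to 0.81 with each library scaled to one sum and to 0.51 after correction for length and GC, and the EpiLC fold of nucleoplasm against cytoplasm turned to 0.14 after that correction. In nESC, Cox6b2 passed as higher in chromatin and in nucleoplasm than in cytoplasm in both of these settings. The state difference of chromatin against cytoplasm kept its direction in both settings, at -1.04 and -1.28.

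Within a library, a ratio of a pair of isoforms needs no scaling between libraries. Cox6b2 was 77.6% ± 8.63 (SD, n = 3) of its widespread partner Cox6b1 in nESC chromatin, 14.3% ± 0.668 in nucleoplasm, 9.56% ± 0.996 in cytoplasm and 8.61% ± 1.09 in total RNA. In EpiLC it was 38% ± 11.8 in chromatin, 9.63% ± 1.87 in nucleoplasm, 13% ± 2.46 in cytoplasm and 15.3% ± 0.971 in total RNA. The ratio was highest in chromatin in both states. It was lower in EpiLC than in nESC in both nuclear fractions and higher in cytoplasm and total RNA, without overlap of the states in any of them. Cox6b2 itself was not higher there, with means from 133 to 103 FPKM in cytoplasm and 81.6 to 62.7 FPKM in total RNA. Cox6b1 went from 1397 to 804 FPKM and from 951 to 410 FPKM in the same groups. No test was made across the states, whose tables were normalized separately.

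**Figure D3:**
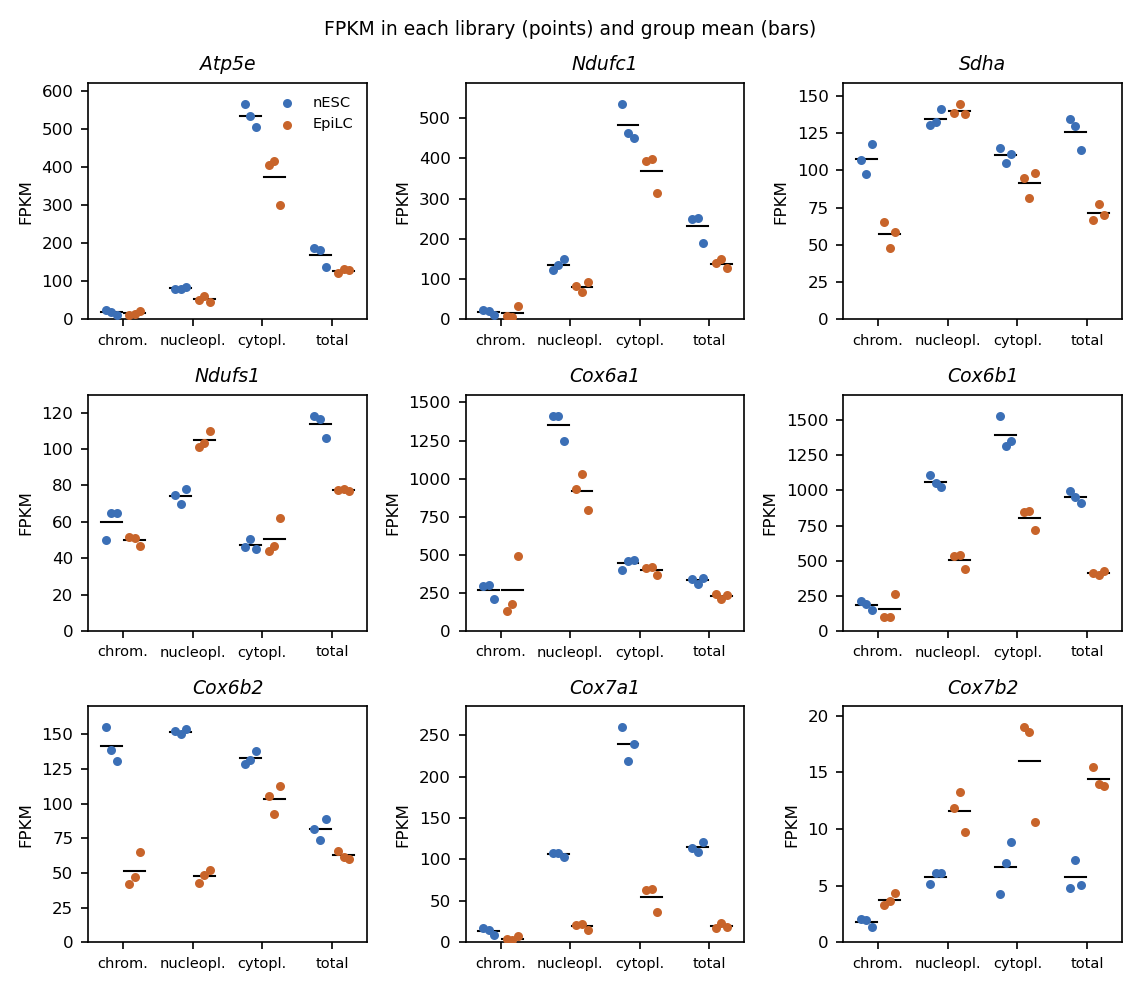
FPKM (y axis, linear, from 0) of 9 members in each fraction (x axis) for the 3 libraries of nESC (blue) and EpiLC (orange), with bars at the group means. Atp5e and Ndufc1 peak in cytoplasm, Cox6a1 and Ndufs1 in a nuclear fraction or total RNA, Cox6b2 is level across the nESC fractions, and Cox7b2 alone of the 9 is higher in EpiLC total RNA.

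Ndufa13, also known as GRIM-19, is an accessory complex I subunit on chromosome 8 (69894180 to 69902558) that overlaps Yjefn3 on the same strand, so reads may be shared. It was at 17.2, 14.7 and 10.9 FPKM in nESC chromatin and 294, 258 and 257 FPKM in cytoplasm, and in EpiLC at 17.7, 16.7 and 55.2 and 168, 169 and 160.0 FPKM. Cytoplasm was lower in EpiLC with no overlap, and chromatin differed mainly in the third EpiLC library. The interaction was 1.63 ± 0.49 (SE, adjusted p = 0.0326) and 1.06 (adjusted p = 0.0043) without that library. Its adjusted p rose to between 0.0547 and 0.0713 without the second or the third nESC chromatin library, or without any 1 of the 3 nESC or 3 EpiLC cytoplasm libraries. Leaving out the first EpiLC chromatin library added Ndufa6, Ndufb7 and Ndufv3 to the members called higher and removed Cox6b2, and leaving out the second added Ndufv3. Without the first or the third EpiLC cytoplasm library 0 members passed.

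Levels of the states were then set side by side. Both tables were normalized on their own, so these differences carry no test, and in bulk RNA fewer cells with a message and less RNA per cell cannot be told apart. In total RNA the members were lower in EpiLC: 72 of 80 had a lower mean, and for 68 of the 80 (85%) the EpiLC libraries all lay below the nESC libraries, while 4 lay above, beside 41.3% and 42.7% of all genes. The median log2 difference was -0.59, against 0.02 for all genes. At least 2-fold apart were 12 lower and 1 higher, beside 12.9% and 18.3%. In nucleoplasm 62 of 81 members were lower without overlap and 8 higher, beside 35.7% and 46.3% of all genes. In cytoplasm 55 of 82 were lower and 4 higher, beside 30.1% and 40.7%, and in chromatin 13 of 80 lower and 3 higher, beside 26.2% and 28.1%. At least 2-fold lower and higher were 11 and 0 in nucleoplasm (beside 13.2% and 14.6%), 3 and 1 in cytoplasm (12.1% and 14.4%) and 2 and 0 in chromatin (10.2% and 12.7%). The chromatin counts rested on the third EpiLC library. Without it, a setting chosen after seeing the data, 61 of 80 members were lower without overlap and 3 higher, beside 30.8% and 34.5% of all genes, 12 were at least 2-fold lower, beside 10.6%, and the members' median was -0.59 in place of -0.30. With each library scaled to one sum the total RNA median was -0.37, and 6 members were at least 2-fold lower.

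**Figure D4:**
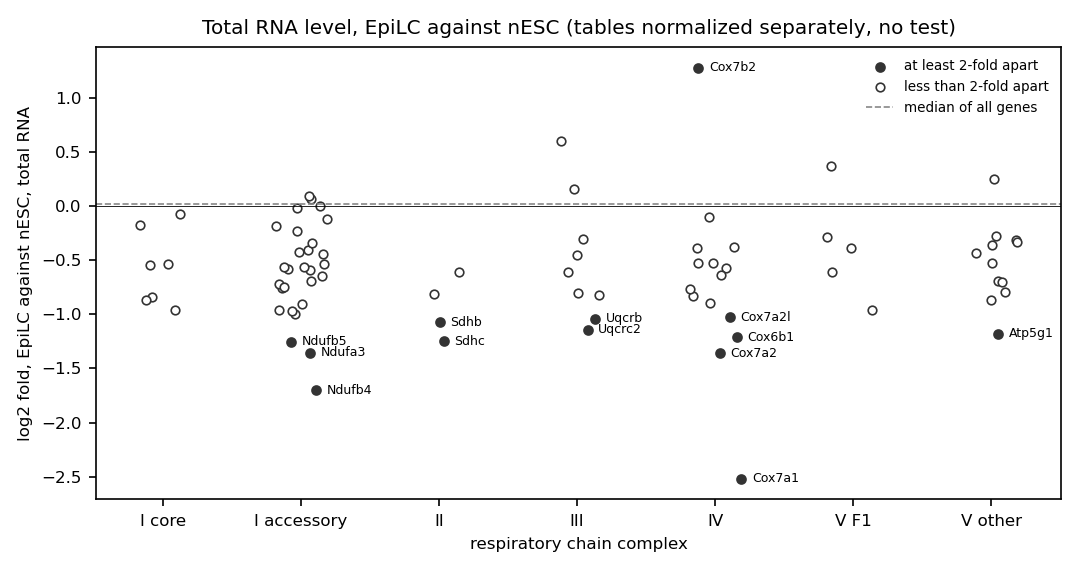
Log2 difference of EpiLC and nESC total RNA (y axis) for each member by complex (x axis). Filled, named points are at least 2-fold apart, and the dashed line is the median of all genes, 0.02. Most members lie between -1 and 0, Cox7a1 is lowest at -2.52 and Cox7b2 highest at 1.28.

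By complex, the median difference in total RNA was -0.57 for complex I, -0.94 for complex II, -0.61 for complex III, -0.64 for complex IV and -0.43 for complex V. Complex II summed to 489, 474 and 427 FPKM in nESC total RNA and 249, 263 and 245 FPKM in EpiLC, and complex V to 11917, 11673 and 11641 and 8400, 8341 and 8432 FPKM. The sums of all 5 complexes were lower in EpiLC with no overlap. The share of complex V in the members' sum was 37.8% in nESC and 39.8% in EpiLC.

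Among complex I genes, 3 accessory subunits of the membrane arm were at least 2-fold lower. Ndufb4 was at 212, 188 and 182 FPKM in nESC total RNA and 62.5, 55.4 and 59.8 FPKM in EpiLC, a log2 difference of -1.70. Ndufa3 was at 312, 331 and 335 and 123, 129 and 129 FPKM (-1.35) and Ndufb5 at 321, 303 and 302 and 128, 127 and 132 FPKM (-1.25). Each was lower in EpiLC cytoplasm and nucleoplasm as well, with log2 differences of -1.44, -0.63 and -0.86 in cytoplasm in that order.

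In complex II, Sdhc at 64.5, 66.2 and 54.8 and 29.6, 22.8 and 25.0 FPKM, and Sdhb at 147, 137 and 131 and 66.1, 69.0 and 61.3 FPKM, were more than 2-fold lower in EpiLC. Sdha and Sdhd were lower without overlap and by less, -0.81 and -0.61. Uqcrc2, at 156, 159.6 and 155 and 71.4, 68.4 and 72.0 FPKM (-1.14), and Uqcrb, at 533, 555 and 523 and 247, 256 and 278 FPKM (-1.04), were the complex III genes past 2-fold. Atp5g1, at 670.1, 628 and 599 and 277, 275 and 285 FPKM (-1.18), was the only gene of complex V. Uqcrq was higher in EpiLC total RNA, at 101, 93.9 and 108 against 60.7, 69.2 and 69.2 FPKM, and higher in cytoplasm too.

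Both the lowest and the highest difference in total RNA belonged to isoform genes of complex IV. Cox7a1 was at 114, 109 and 122 FPKM in nESC total RNA and 17.8, 23.0 and 18.4 FPKM in EpiLC, 5.72-fold lower. It was lower in cytoplasm (-2.15), nucleoplasm (-2.44) and chromatin (-1.54) as well, all without overlap. Its partner Cox7a2, at 220.1, 208 and 159 and 80.3, 77.9 and 68.3 FPKM, was lower by less in total RNA (-1.36), and so was Cox7a2l (-1.03, and -0.99 without the first nESC total library). In nESC cytoplasm Cox7a1 was 122% ± 7.1 (SD, n = 3) of Cox7a2, and in EpiLC cytoplasm 32.1% ± 6. In total RNA the ratio was 60.1% ± 14 and 26.2% ± 3.74. Nucleoplasm and chromatin had the same direction, and the states did not overlap in any fraction.

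Cox7b2, the testis isoform of subunit VIIb, was the 1 member at least 2-fold higher. It was at 4.78, 7.32 and 5.10 FPKM in nESC total RNA and 15.5, 14.0 and 13.8 FPKM in EpiLC, 2.43-fold higher, and was 1.43% ± 0.272 of Cox7b in nESC and 6.74% ± 0.357 in EpiLC. These low levels rest on few fragments. Cox6b1, the partner of Cox6b2, was at 993, 951 and 908 FPKM in nESC and 412, 396 and 423 FPKM in EpiLC, a log2 difference of -1.21, without overlap.

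The c ring genes also differed between the states. Atp5g1 was 99.1% ± 5.67 (SD, n = 3) of Atp5g2 in nESC total RNA and 55.9% ± 1.41 in EpiLC total RNA. In cytoplasm the ratio was 76.1% ± 3.37 and 48.3% ± 0.619, and it was lower in EpiLC in nucleoplasm and chromatin too, without overlap in any of them. Atp5g2 itself differed less, at 652, 616 and 647 and 510.3, 488 and 499 FPKM in total RNA, and Atp5g3 was at 391, 397 and 392 and 324, 307 and 318 FPKM.

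Cox8b, the muscle isoform of subunit VIII, appeared in few groups. It was listed at 0 in all nESC chromatin libraries, at 5.06, 3.84 and 3.98 FPKM in nucleoplasm, 7.82, 5.07 and 8.71 FPKM in cytoplasm and 0, 0 and 0.179 FPKM in total RNA. In EpiLC it was listed at 0 in all libraries but the third cytoplasm (0.41 FPKM) and the second total library (0.27 FPKM). An exact 0 in such a table can be a failed estimate, so no fold is given, although Cox8b counts among the members that passed in nESC chromatin against cytoplasm and cytoplasm against total. Cox8c was listed at 0 in all nESC libraries and reached at most 0.53 FPKM in EpiLC. Cox4i2 and Cox6a2 had means below 1 FPKM over each table and were not tested.

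Because Cox7a1, Cox8b and Cox6a2 are muscle isoforms, markers of heart and muscle were read beside them. The 6 markers (Myh6, Myh7, Actc1, Tnnt2, Myl7 and Ckm) summed to 10.2 to 11.7 FPKM in nESC total libraries and 8.3 to 36.2 FPKM in EpiLC total libraries, and to 24.8 to 29.2 and 15.2 to 19.5 FPKM in cytoplasm. Myl7 made up most of the nESC cytoplasm sum, and Actc1 was listed at 0 in every nESC cytoplasm library. In nESC cytoplasm Myh6, Myh7 and Ckm were below 1 FPKM. Actc1 was highest in the second nESC nucleoplasm library (6.10 FPKM) and in the second and the third EpiLC total libraries (7.95 and 8.35 FPKM), while the 3 nESC nucleoplasm libraries differed little in Cox7a1 and Cox8b. Primitive endoderm markers summed to at most 3.58 FPKM in any library. Of the 6 fibroblast or feeder markers only Vim had a mean of at least 1 FPKM in nESC cytoplasm. The list summed to 268 to 290 FPKM in nESC total libraries and 60.2 to 63.9 FPKM in EpiLC. Vim made up nearly all of this, with means of 277 and 52.7 FPKM. Thy1 went the other way, from 0.868 to 7.32 FPKM, and the remaining markers had means of at most 1.20 FPKM there. Whether any such cells were present, and what part they had in the isoform levels, was not tested.

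Gene structure was set beside the folds, since FPKM of short messages depends on how their effective length is treated. The principal transcripts of the members had a median of 787 bases, against 2805 for the 12967 genes at 1 FPKM or more, and 4 exons against 8. Across 81 members, the nESC fold of chromatin against nucleoplasm went with transcript length at a Spearman's rho of 0.57 (Pearson's r 0.51 on log2 length), and short messages had the lower folds. Members under 1000 bases had a median of -2.54, those of 1000 to 2000 bases -1.75 and the 7 longer ones -1.28. The EpiLC minus nESC difference of nucleoplasm against cytoplasm went with length at 0.65 (r 0.58, 80 members), from a median of -0.24 under 1000 bases to 0.09 at 1000 to 2000 bases. For chromatin against cytoplasm rho was 0.29 in nESC and 0.25 in EpiLC. These points share libraries and are a description across genes. With all genes corrected for length and GC, 67 members were still lower in nESC chromatin than in cytoplasm and 71 in EpiLC. The medians were -1.64 and -1.62. In this setting 2 members, Cox6a1 and Cox6b2, were higher in nESC chromatin and 0 in EpiLC. Shares of all genes after the correction are not given here.

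**Figure D5:**
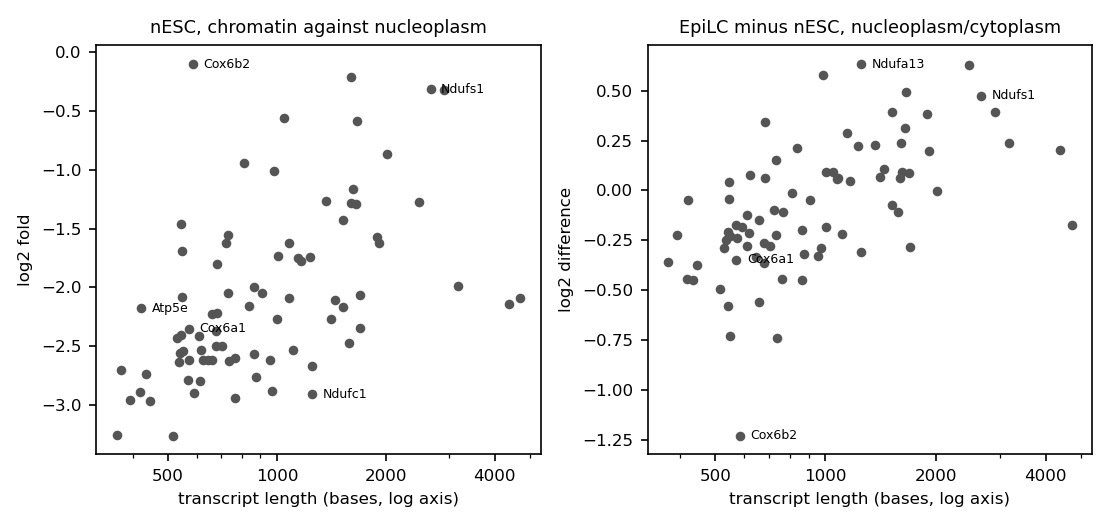
Log2 fold of chromatin against nucleoplasm in nESC (left, 81 members) and the EpiLC minus nESC difference of the nucleoplasm against cytoplasm fold (right, 80 members), each against transcript length in bases on a log axis. Longer messages such as Ndufs1 sit higher in both panels. Cox6b2, with a length of 585 bases, is the highest point on the left and the lowest on the right, at -1.23.

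GC content went with another comparison. The log2 fold of cytoplasm against total RNA had a Spearman's rho with transcript GC of 0.63 across 81 members in nESC and 0.53 across 80 in EpiLC (Pearson's r 0.56 and 0.58), with the GC-rich members higher in cytoplasm.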

How the data were processed

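RNA of 24 libraries was measured, 3 for each of 4 fractions in 2 states. The authors deposited 1 FPKM table per state, and per the submitters' processing notes TopHat2, Cuffnorm and the mm10 build of GRCm38 were used. For versions, annotation, normalization setting and strand the entry is "not given in the sources used here". RNA was depleted of ribosomal RNA and sequenced from a stranded total RNA kit, per the labels' protocols. The members and lists were chosen with earlier results of these data known.

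Within each table, log2(FPKM + 0.5) was fitted over all 12 libraries with limma 3.58.1 in R 4.3.3 (trend, two-sided, Benjamini-Hochberg over every gene averaging 1 FPKM or more). A gene was called at an adjusted p under 0.05 and at least 2-fold. State differences were interaction terms, fitted on 12 median-centred libraries. The scripts were tested on simulated data. Library values are given for the 2 called members of each complex with the largest folds, members that differed between states, isoform sets and complex II. Depth came from the spacing of low values, of which 91.9% to 96.8% lay within 10% of whole multiples. Alternatives were 2 pseudocounts, 2 filters, scaling to one sum, centring, a replicate block, length and GC correction and leaving out libraries.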

Additional observations from a re-analysis of the deposited data

Results flagged for a closer look

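Cox6b2 differed between the states in both interaction tests, with an EpiLC minus nESC log2 difference of -1.02 for chromatin against cytoplasm and -1.23 for nucleoplasm against cytoplasm. Ndufa13 differed for chromatin against cytoplasm, by 1.63, where the third EpiLC chromatin library was far above the other 2. Limma's interaction test across all genes marked these, and no explanation was tested.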

How the results depend on the processing

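Pseudocounts of 0.1 and 1 changed no count of members by over 1.5 times. With each library scaled to one sum, members called numbered 43 in nESC and 39 in EpiLC for chromatin against cytoplasm. For nucleoplasm against cytoplasm they numbered 20 and 11, with more higher than lower, and for cytoplasm against total 7 and 1, with more lower than higher. In total RNA 7 members were at least 2-fold apart. With length and GC correction the counts were 12 and 11 for nucleoplasm against cytoplasm, 9 and 9 for cytoplasm against total and 7 for total RNA. With a mean of at least 5 FPKM, 1 member differed between states in chromatin against cytoplasm. Shares of all genes in these settings are not given here, so the counts show only the dependence on the setting. The cause was not tested.

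Of the 81 members tested in nESC and 80 in EpiLC, scaling to one sum turned the sign of 9 and 7 for chromatin against cytoplasm, 45 and 37 for nucleoplasm against cytoplasm, 6 and 2 for chromatin against nucleoplasm and 48 and 36 for cytoplasm against total. Length and GC correction turned 4 and 3, 23 and 31, 2 and 0, and 18 and 8 in that order, most of them not called in either setting. Among genes described in the report that passed the test in at least 1 of the settings compared, those that turned sign under one sum in nESC chromatin against cytoplasm were Sdha (1.93), Uqcrc2 (0.12), Cox7b (0.23), Cox6a1 (1.24) and Cox7b2 (0.11). In nESC nucleoplasm against cytoplasm they were Atp5g1 (0.13), Ndufa4 (1.03), Ndufa3 (0.22), Cox7b2 (1.02) and Cox7a1 (0.10). In EpiLC chromatin against cytoplasm they were Sdha (1.16), Ndufs1 (1.82), Cox7b (0.18), Cox6a1 (1.02) and Cox6b2 (0.81), and in EpiLC cytoplasm against total Cox8a (-0.001). By the same criterion, length and GC correction turned Cox6a1 (1.06) in nESC chromatin against cytoplasm, Ndufa13 (-0.095) in nESC cytoplasm against total, Cox6b2 (0.51) in EpiLC chromatin against cytoplasm, and Sdhb (0.016), Cox6b2 (0.14) and Atp5g2 (0.16) in EpiLC nucleoplasm against cytoplasm. It also turned Cox6a1 in EpiLC chromatin against cytoplasm, from -0.83 to 0.65, called in neither.

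Leaving out 1 library at a time gave 0 to 4 members for the state difference of chromatin against cytoplasm. For the levels of the states, where these settings were chosen after seeing the data, it gave 13 to 61 members lower in EpiLC chromatin without overlap, 3 to 5 higher and 2 to 12 at least 2-fold apart, with 61 and 12 without the third EpiLC library. It gave 4 to 8 higher in cytoplasm. The replicate block gave the same 76 members in nESC chromatin against cytoplasm. Over all genes, deviations of same-numbered libraries had correlations from -0.219 to 0.177. Such values cannot show whether same-numbered libraries came from 1 culture, so pairing is left undecided. Depth limits the weak members most: cytoplasm and chromatin libraries hold the fewest fragments per FPKM.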
